A study of Sus scrofa with 4 samples.

Results

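The genes described here are those of the cytosolic ribosomal proteins, chosen by symbol from a table of gene expression in pig (Sus scrofa) muscle. The rule took RPLP0, RPLP1, RPLP2, RPSA, FAU and every RPL or RPS symbol with a number and an optional A or X, and left out names ending in L, P or like and the S6 kinases. It found 77 genes among 29692 symbols, 45 of the large (60S) subunit and 32 of the small (40S) subunit. Biopsies of muscle from Hampshire pigs (2 libraries) and from Mali pigs (2 libraries) were sequenced as total RNA. The breeds are described as differing in muscularity, and the labels used here give no age, sex, muscle or animal number. The p-values therefore measure only the spread between these libraries, which may be technical.

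The ribosome joins amino acids into protein, and its subunits are built in the nucleolus from ribosomal RNA and 1 copy of nearly every ribosomal protein. The messengers of these proteins start with a terminal oligopyrimidine tract, through which the growth kinase mTOR controls their translation together. In muscle, the amount of ribosomes sets a ceiling on protein synthesis, and ribosome production is known to accompany growth of the fibres.

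Values are FPKM, fragments scaled by gene length and by library size, so levels are per length. How library size was set in the deposited values is not stated. A comparison of levels between genes depends on the length used for each gene. The FPKM of all genes summed to 988614 and 756253 in Hampshire replicates 1 and 2, against 516463 and 894809 in Mali replicates 1 and 2. Genes of the mitochondrial genome made up 42.5% and 21.3% of these sums in Hampshire and 19.4% and 17.1% in Mali. Read totals are unknown. The libraries titled without a suffix are replicate 1 of each breed, and those with the suffix 1 are replicate 2; in what follows, pairs of values are given in that order. The 13 skeletal muscle markers measured summed to 130105 and 140444 FPKM in Hampshire, against 70821 and 161215 FPKM in Mali, with overlap. Of these markers 9 had a positive difference, with a median of 0.98 and -0.44 within the suffixes, and 0 passed the test.

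The ribosomal protein genes were among the most abundant messengers of the muscle, and no gene of either subunit passed the test for a difference between the breeds. All 77 passed the filter of at least 1 FPKM in at least 2 libraries, and 76 were at or above 100 FPKM in every library. Their median was 732 and 774 FPKM in Hampshire, against 594 and 764 FPKM in Mali. The 10075 genes tested had a median of mean levels of 5.78 FPKM. Of the 100 genes with the highest mean FPKM, 34 were ribosomal protein genes. Together they took 11.2% and 12.0% of the FPKM outside the mitochondrial genome in Hampshire, against 12.4% and 10.1% in Mali, so the breeds overlapped in this share.

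**Figure D1:**
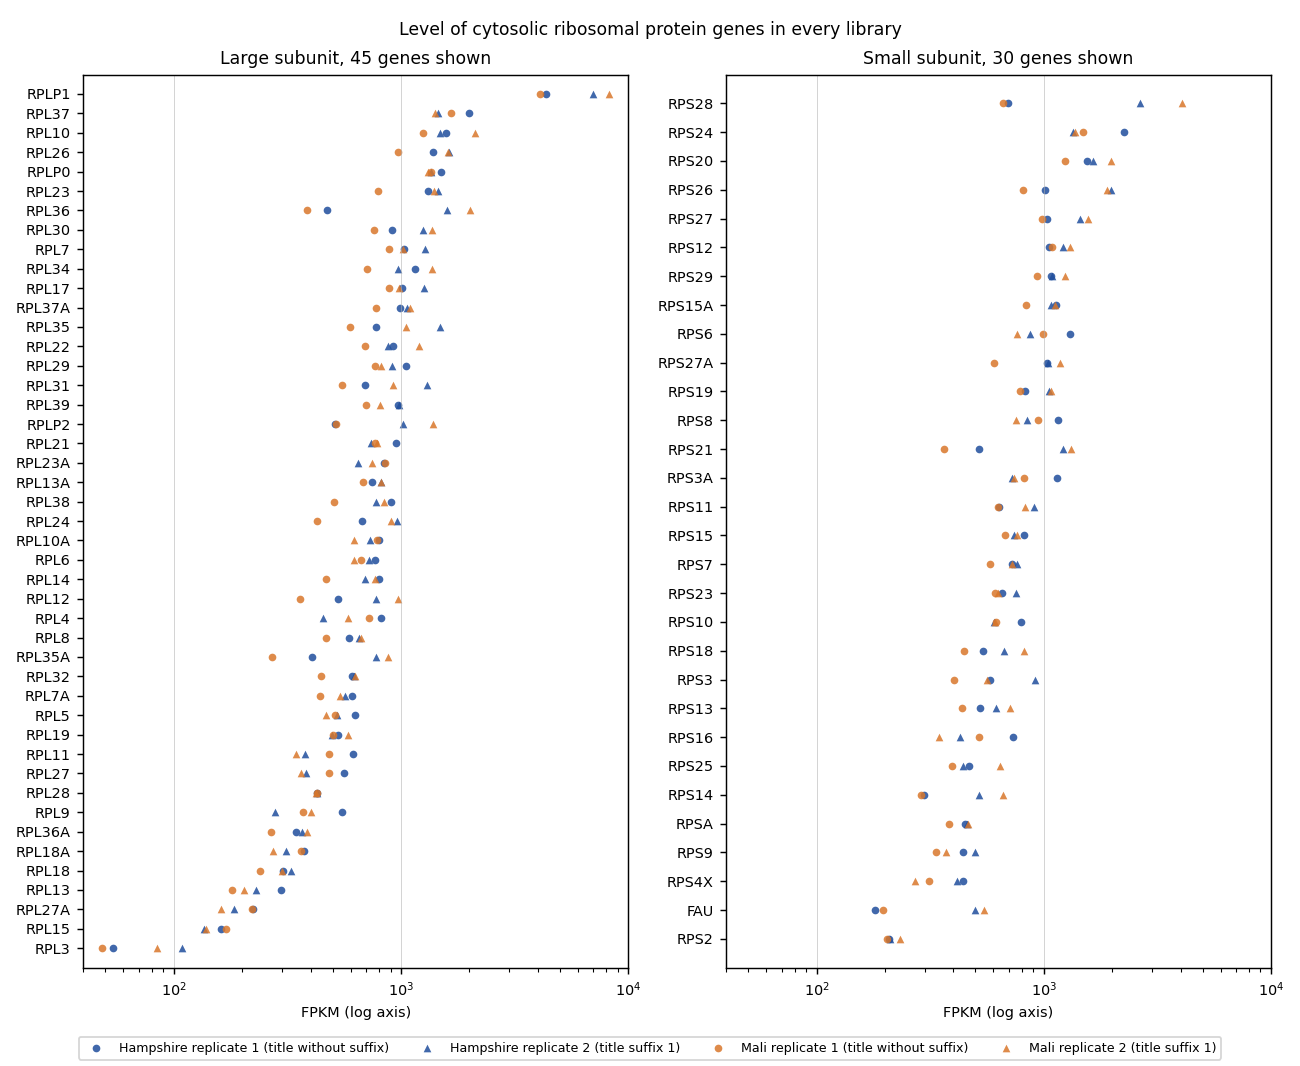
FPKM of each ribosomal protein gene (log axis), with 1 point for each of the 4 libraries, genes sorted by their mean level within the large and the small subunit (2 small subunit genes not drawn). Most genes lie between 300 and 1000 FPKM, RPLP1 stands at the top in every library and RPL3 at the bottom, and for RPS28, RPL36, RPS21 and FAU both triangles (title suffix 1) lie right of both circles.

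Levels were spread over an 80.2-fold range of means, with 20 genes at a mean of 1000 FPKM or more, 50 between 300 and 1000 FPKM and 7 lower. The quartiles lay close together, with a lower quartile of 505 FPKM and an upper quartile of 1035 FPKM. The most abundant large subunit genes were RPLP1, RPL37, RPL10 and RPL26. RPL37, a small zinc-binding protein of the large subunit, was at 2000.4 and 1454 FPKM in Hampshire, against 1665 and 1417 FPKM in Mali. RPL10, which joins the large subunit late in its assembly, was at 1583 and 1485 FPKM in Hampshire, against 1255 and 2111 FPKM in Mali. RPL26, near the exit of the peptide tunnel, was at 1391 and 1625 FPKM in Hampshire, against 975 and 1605 FPKM in Mali. In all 3 genes the breeds overlapped. Of the small subunit, RPS28, RPS24, RPS20 and RPS26 had the highest means. RPS24, a gene mutated in some patients with Diamond-Blackfan anaemia, was at 2251 and 1343 FPKM in Hampshire, against 1484 and 1377 FPKM in Mali. RPS20 was at 1547 and 1649.6 FPKM in Hampshire, against 1239 and 1972 FPKM in Mali, again with overlap.

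The lowest genes kept their place in every library. RPL3, a core protein close to the peptidyl transferase centre, ranked last of the 77 in all 4 libraries, and RPL15, also of the large subunit, ranked 76th in all 4. RPL15 was at 161 and 135 FPKM in Hampshire, against 169 and 138 FPKM in Mali. RPS2, which lies at the messenger entry, was among the lowest genes of the small subunit, at 207 and 211 FPKM in Hampshire, against 204 and 233 FPKM in Mali.

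In the limma test on log2(FPKM + 1) over all 10075 genes, Hampshire minus Mali, the Benjamini-Hochberg adjusted p was under 0.05 for 0 of the 77 genes and for 0% of all those tested. An unadjusted p under 0.05 was found for 0 of the 77, against 7.09% of all tested genes. Adjusted p ran from 0.918 to 0.999 over the 77 genes. In the authors' deposited table, which marks 65 rows as significant, 0 rows of these genes are marked, and their q-values run from 0.999 upward. The differences themselves were small: 75 of 77 genes (97.4%) lay within 0.5 on the log2 scale, where 70.4% of all tested genes did, and the median size of the difference was 0.15 on that scale, against 0.31 for all tested genes. The precision was low. The 95% interval of a difference reached from 1.17 to 2.42 to either side on the log2 scale, and 0 of 77 intervals excluded 0, so changes smaller than this were not detectable here.

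The sign of the difference depended on how the libraries were scaled and on which libraries were compared. As deposited, 60 of 77 genes (77.9%) had a positive log2 difference with a median of 0.15, where 39.5% of all tested genes were positive with a median of -0.12. With all libraries brought to a common sum of FPKM, 12 were positive and the median was -0.20, while the median of all genes moved to -0.40. The sum of Hampshire replicate 1, with 42.5% from the mitochondrial genome, was the highest of the 4; its part in the sign was not tested. With a common sum of the other genes alone, 53 of 77 were positive. Relative to the median of all genes, 72 of 77 genes were above it as deposited and 65 of 77 with the common sum. Over all settings this count ran from 50, without Mali replicate 1, to 75, with a filter on a mean of at least 5 FPKM. With quantile normalization it was 59. Between the replicates 1, which carry no suffix, 70 of 77 genes were higher in Hampshire with a median difference of 0.30. Between the replicates 2, with suffix 1, 36 of 77 were higher in Hampshire and the median was -0.02. For all tested genes these medians were -0.05 and -0.17. A single library decided the sign of the median: without Mali replicate 1, whose summed FPKM over the 77 genes was the lowest at 51558 against 63828 to 75000.3 in the others, the median was -0.01 and 36 genes were positive.

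Of the 77 genes, 15 (19.5%) stood higher in each Hampshire library than in either Mali library, a pattern of 13.0% of all tested genes. The opposite pattern was found for 0 of 77, against 23.6% of all tested genes. The 15 genes were, of the large subunit, RPL5, RPL6, RPL7, RPL7A, RPL13, RPL17, RPL18, RPL29, RPL39 and RPLP0, and of the small subunit RPS3, RPS4X, RPS7, RPS9 and RPS23, with differences of 0.10 to 0.62 on the log2 scale. With the common sum, 0 genes were separated as higher in Hampshire and 5 as lower, where 5.18% and 34.9% of all tested genes were. With median-of-ratios size factors 27 were separated as higher and 0 as lower, where 16.8% and 17.0% of all tested genes were. The 15 genes named above all stayed separated as higher with these size factors. With quantile normalization 4 of the 15 did, and with a common sum of the non-mitochondrial genes 1 did. Below, overlap between the breeds refers to the values as deposited. Of all 77 genes, 34 (44.2%) were higher in Hampshire within both suffixes, where 20.4% of all tested genes were, 5 (RPLP2, RPL15, RPL23A, FAU and RPS12) were lower within both, and 38 went opposite ways. In bulk tissue, fewer cells of a type and less RNA per cell cannot be told apart.

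**Figure D2:**
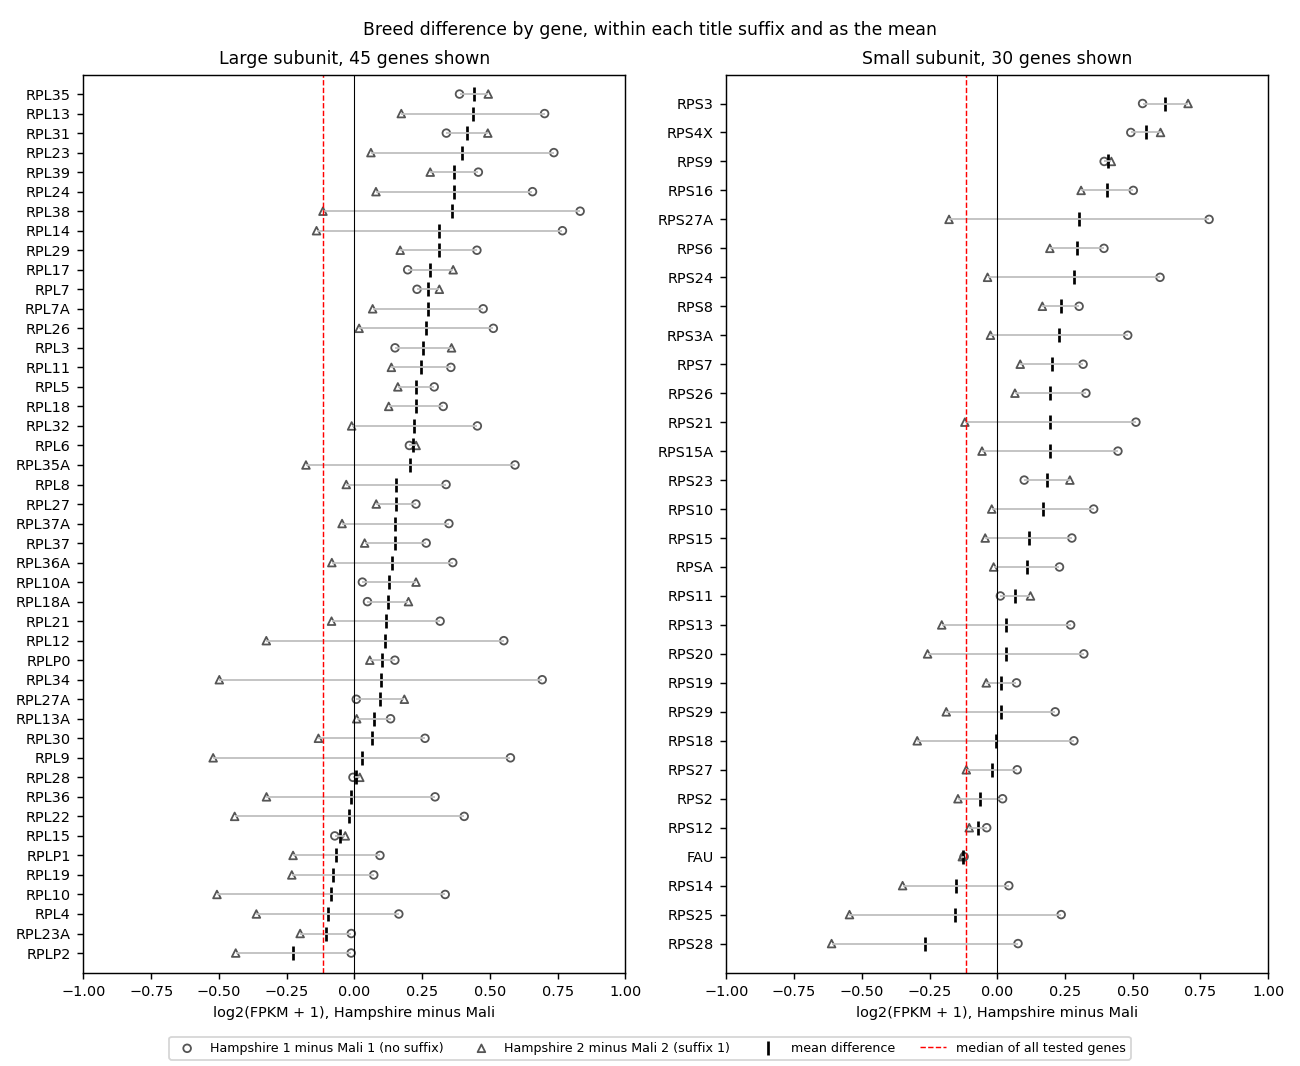
Hampshire minus Mali difference of each gene on the log2(FPKM + 1) scale, between the replicates 1 (circles), between the replicates 2 (triangles) and as their mean (bars), for the large and the small subunit (2 small subunit genes not drawn). Most circles lie right of 0, while the triangles scatter on both sides of it; RPS3 and RPS4X have both values at 0.49 or above.

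The largest positive differences were those of RPS3 and RPS4X, both of the small subunit, whose next genes were RPS9 and RPS16. RPS3, which lines the entry of the messenger channel and also acts in DNA repair, was at 582 and 912 FPKM in Hampshire, against 401 and 559.7 FPKM in Mali. The groups did not overlap, and the difference was 0.62 on the log2 scale (SE 0.58, limma adjusted p = 0.918), 0.54 and 0.70 within the suffixes. RPS3 lies on chromosome 9 (9612939 to 9630404, Sscrofa11.1, plus strand). RPS4X, the X-linked form of a small subunit protein that has a Y-linked partner in humans, was at 440.2 and 413 FPKM in Hampshire, against 313 and 272 FPKM in Mali. By the deposited gene positions RPS4X overlaps a pseudogene on the same strand, so its value is uncertain. Its difference of 0.55 (SE 0.53, limma adjusted p = 0.918) was 0.49 and 0.60 within the suffixes, and the libraries of the breeds did not overlap. RPS9, which acts in the accuracy of decoding in yeast, was at 441 and 497 FPKM in Hampshire, against 335 and 371 FPKM in Mali, also without overlap. RPS16, whose tail reaches the transfer RNA that holds the growing peptide, was at 732 and 428 FPKM in Hampshire, against 516 and 345 FPKM in Mali, with overlap. The signs of these 4 genes were the same in all 17 other settings. Filters, limma settings and a term for the suffix leave an estimate as it was. Only rescaling or leaving out a library could readily turn these signs. With the common sum the difference was 0.27 for RPS3, 0.20 for RPS4X and 0.06 for both RPS9 and RPS16. Without Hampshire replicate 1 the difference of RPS16 was 0.02.

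Among large subunit genes, RPL35, RPL13, RPL31 and RPL23 had the largest positive differences. RPL35 and RPL31 belong to the ring around the tunnel exit. RPL35 was at 778 and 1488 FPKM in Hampshire, against 594 and 1056 FPKM in Mali, and RPL31 at 696 and 1298 FPKM in Hampshire, against 550.2 and 922 FPKM in Mali. In both genes each Hampshire library was above the Mali library of the same suffix, but Mali replicate 2 was above Hampshire replicate 1. Without Hampshire replicate 2 the difference of each was -0.03. RPL13 was at 295 and 229 FPKM in Hampshire, against 181 and 203 FPKM in Mali, and RPL39, a short protein in the wall of the tunnel, at 969 and 979.9 FPKM in Hampshire, against 705 and 807 FPKM in Mali. Those 2 genes did not overlap between the breeds (limma adjusted p = 0.941 and 0.958). By the deposited gene positions RPL39 overlaps a long non-coding RNA gene on the opposite strand, so its value is uncertain. RPL23, which binds the anti-association factor eIF6, overlapped, with 1316 and 1453 FPKM in Hampshire, against 789 and 1393 FPKM in Mali.

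Negative differences were smaller. RPS28, at the messenger exit, had the lowest at -0.27 (SE 1.03) and RPLP2, of the stalk, followed with -0.23 (SE 0.71). RPS25, needed for some internal ribosome entry sites, was at 466 and 439 FPKM in Hampshire, against 396 and 642 FPKM in Mali, and RPS14, whose loss of 1 copy marks a human marrow disorder, at 297 and 517 FPKM in Hampshire, against 289 and 658 FPKM in Mali. By the deposited gene positions RPS25 overlaps CCDC84 and RPS14 overlaps NDST1, each on the opposite strand. RPL23A, a docking site for targeting factors at the tunnel exit, was at 840.4 and 649 FPKM in Hampshire, against 847 and 746 FPKM in Mali. RPL4, which reaches into the tunnel, was at 814 and 454 FPKM in Hampshire, against 726 and 584 FPKM in Mali. The libraries of the breeds overlapped in all of these genes.

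By role, most genes overlapped between the breeds, and a few did not. The 5S particle proteins RPL5 and RPL11, which also bind the p53 regulator MDM2, had differences of 0.23 and 0.25 on the log2 scale. RPL5 was at 627 and 522 FPKM in Hampshire, against 511 and 467 FPKM in Mali, and RPL11 at 614 and 379 FPKM in Hampshire, against 479.8 and 344 FPKM in Mali. RPL5 did not overlap between the breeds and RPL11 did. Of 8 genes of the tunnel and its exit, 5 were positive with a median of 0.27, and 2 were separated as higher in Hampshire. Of 16 genes mutated in Diamond-Blackfan anaemia, 14 were positive with a median of 0.20, and 3 were separated as higher in Hampshire. Of all tested genes 39.5% were positive and 13.0% were separated as higher. With the common sum the medians of the tunnel and the anaemia genes were -0.07 and -0.14. RPS6, the substrate of S6 kinase, was at 1307 and 869 FPKM in Hampshire, against 995 and 759 FPKM in Mali. RPSA, which caps the messenger exit side of the small subunit and is also known as a laminin receptor, was at 448 and 459 FPKM in Hampshire, against 382 and 463 FPKM in Mali. In every one of these groups 0 genes passed the test.

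As deposited, the steadiest genes were found in the large subunit. The spreads given here hold for that scaling only. RPL28 was at 425 and 429 FPKM in Hampshire, against 427 and 423 FPKM in Mali, the smallest spread between libraries of a breed among the 77 (residual SD 0.01 on the log2 scale). RPLP0, the base of the stalk and a common reference gene in quantitative PCR, was at 1497 and 1362 FPKM in Hampshire, against 1349.8 and 1309 FPKM in Mali, with a difference of 0.10 (SE 0.57, limma adjusted p = 0.990). It was nevertheless among the genes separated as higher in Hampshire. The median residual SD was 0.27 for large and 0.34 for small subunit genes, against 0.36 for all tested genes.

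The rest of the stalk behaved otherwise. RPLP1 and RPLP2 are short acidic proteins that sit as dimers on RPLP0 and recruit the elongation factors. RPLP1 was the most abundant ribosomal protein messenger in every library, at 4355 and 7026 FPKM in Hampshire, against 4080.1 and 8220.1 FPKM in Mali. RPLP2 was at 513 and 1018 FPKM in Hampshire, against 517 and 1379.8 FPKM in Mali. The ratio of RPLP1 to RPLP0 was 2.91 and 5.16 in Hampshire, against 3.02 and 6.28 in Mali, so it followed the suffix and overlapped between the breeds.

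The sums of large and small subunit genes had nearly the same ratio in every library. RPLP1 alone made up 11.5% and 16.5% of the large subunit sum in Hampshire, against 13.4% and 18.4% in Mali. The difference of the subunit medians varied more, from -0.25 in Mali replicate 1 to 0.11 in Mali replicate 2 on the log2 scale. The summed FPKM of the large subunit divided by that of the small was 1.45 and 1.48 in Hampshire, against 1.44 and 1.47 in Mali, for 45 and 32 genes. The mean level per large subunit gene was 839 and 944 FPKM in Hampshire, against 677 and 991 FPKM in Mali, and per small subunit gene 815 and 899.7 FPKM in Hampshire, against 659 and 951 FPKM in Mali. The median log2(FPKM + 1) of the large subunit minus that of the small was -0.01 ± 0.06 (SD, n = 2) in Hampshire, against -0.07 ± 0.26 (SD, n = 2) in Mali. The breeds differed by 0.06 in this quantity, less than the spread within Mali, and by -0.13 without Mali replicate 1. The median breed difference was 0.15 for large and 0.14 for small subunit genes. With the common sum both medians turned negative, to -0.20 and -0.21. Of the large subunit 36 of 45 genes and of the small 24 of 32 were positive, where 39.5% of all tested genes were.

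The order of levels among the 77 genes followed the title suffix more closely than the breed. The rank correlation across the 77 genes was 0.956 between Hampshire replicate 1 and Mali replicate 1 and 0.946 between Hampshire replicate 2 and Mali replicate 2. It was 0.743 between the Hampshire libraries and 0.684 between the Mali libraries. The difference of replicate 2 from replicate 1 in Hampshire correlated with that in Mali at r = 0.854 across the 77 genes, at 0.803 within the large and 0.908 within the small subunit, and at 0.275 across all tested genes. The 2 differences share no library; genes are not independent replicates, and the correlations are descriptions.

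**Figure D3:**
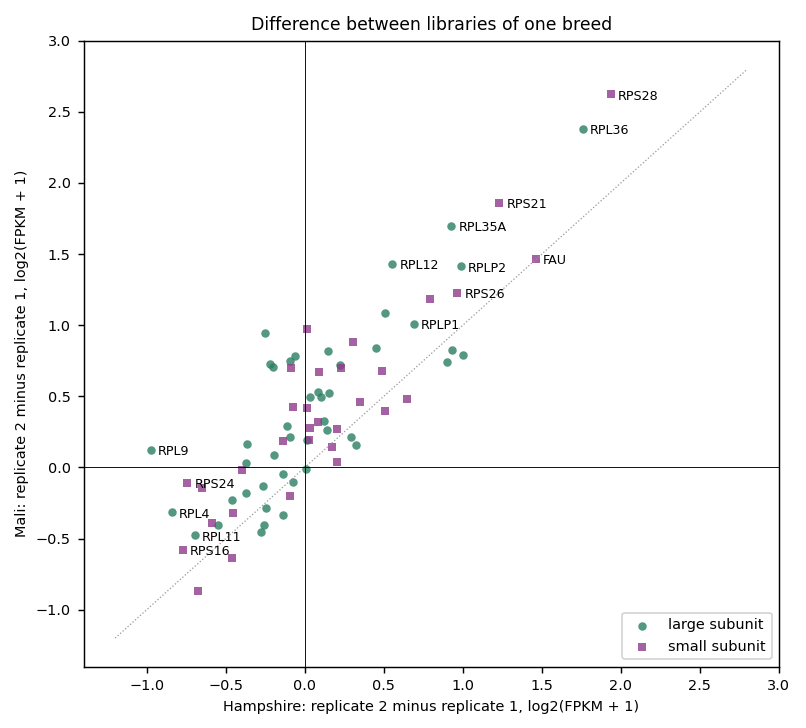
Difference of replicate 2 from replicate 1 on the log2(FPKM + 1) scale, in Hampshire (horizontal) and in Mali (vertical), for 45 large and 32 small subunit genes; the dotted line marks equal differences. Most genes lie above the line, and they run from RPS16 at the lower left to RPS28 and RPL36 at the upper right.

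At the upper end, 4 genes (5.19%) were more than 1 higher on the log2 scale in replicate 2 of both breeds, where 1.74% of all tested genes were; RPL36 and RPS21 are named because of these values. RPS28 was at 695 and 2659.5 FPKM in Hampshire, against 659 and 4064 FPKM in Mali, and ranked 42nd and 34th of the 77 in the replicates 1 and 2nd in both replicates 2. RPL36, of the large subunit, was at 473 and 1603 FPKM in Hampshire, against 384 and 2007 FPKM in Mali. RPS21 was at 519 and 1219 FPKM in Hampshire, against 364 and 1324 FPKM in Mali. FAU, which encodes RPS30 fused to a ubiquitin-like protein, was at 179.8 and 497 FPKM in Hampshire, against 196 and 543 FPKM in Mali. In each of the 4 genes both replicates 2 were above both replicates 1, and the breeds overlapped. Without these 4 genes the correlation across the other 73 was 0.771. By the deposited gene positions RPS28 overlaps NDUFA7 and FAU overlaps MRPL49, each on the opposite strand, whereas RPL36 and RPS21 overlap no other gene. Without a stated strand setting, reads of the overlapping partners cannot be told apart.

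At the lower end, replicate 2 was the lower one in both breeds for RPS16 and RPL11, whose levels are given above. RPS27A, which encodes a small subunit protein fused to ubiquitin, had no such pattern, at 1037 and 1047 FPKM in Hampshire, against 603 and 1184 FPKM in Mali. RPS26, with its level at 1014 and 1980.2 FPKM in Hampshire, against 808 and 1893 FPKM in Mali, was high in both replicates 2. The labels do not say what the suffix stands for, and its part in these values was not tested.

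The low level of RPL3 stood beside a high level of RPL3L, its paralogue in striated muscle, which the naming rule leaves out. RPL3 was at 53.8 and 108 FPKM in Hampshire, against 48.4 and 84.4 FPKM in Mali. RPL3L was at 356 and 179 FPKM in Hampshire, against 245 and 218 FPKM in Mali, above RPL3 in each of the 4 libraries. RPL3L made up 86.9% and 62.3% of the summed FPKM of both genes in Hampshire, against 83.5% and 72.1% in Mali. The sum was 409.9 and 288 FPKM in Hampshire, against 293 and 302 FPKM in Mali, below the median of the ribosomal protein genes in each library. Neither gene passed the test, with log2 differences of 0.25 (SE 0.56) for RPL3 and 0.13 (SE 0.57) for RPL3L and limma adjusted p of 0.973 and 0.989. RPL3 lies on chromosome 5 (8922697 to 8929768) and RPL3L on chromosome 3 (40004907 to 40016702), both on the plus strand of Sscrofa11.1. The treatment of reads shared by paralogues is unstated, which leaves the split between them uncertain.

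**Figure D4:**
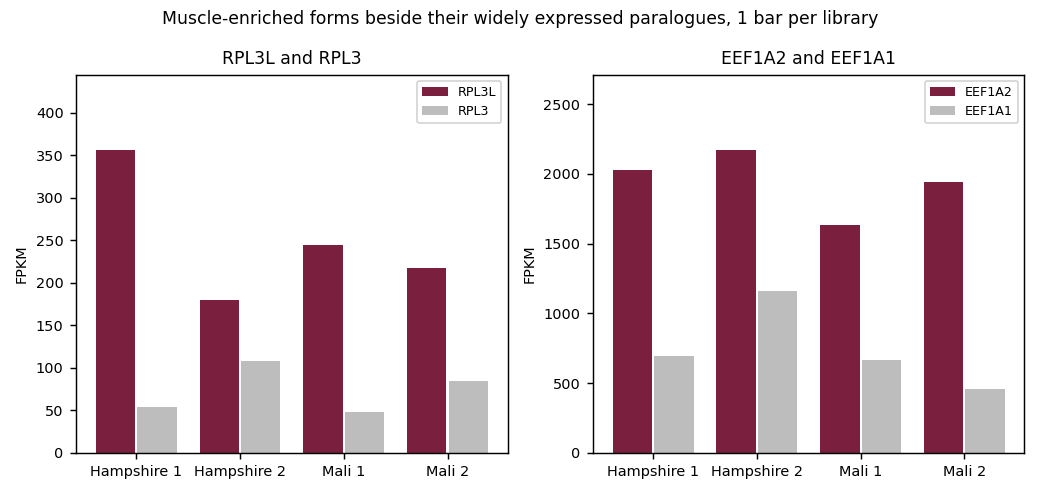
FPKM of RPL3L and RPL3 (left) and of EEF1A2 and EEF1A1 (right) in each of the 4 libraries, with 1 bar per gene and library and axes from 0. The dark bar, for the form enriched in muscle, is the higher one in every library.

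The muscle form was also the higher one for the factor that brings transfer RNA to the ribosome. EEF1A2, its form in muscle and neurons, was at 2025 and 2169 FPKM in Hampshire, against 1631 and 1942 FPKM in Mali, and EEF1A1, the form of most other cells, at 693 and 1157 FPKM in Hampshire, against 668 and 456 FPKM in Mali. The ratio of EEF1A2 to EEF1A1 was 2.92 and 1.87 in Hampshire, against 2.44 and 4.26 in Mali. EEF1A1 had the lowest unadjusted p of the 9 elongation genes, with a difference of 0.70 (SE 0.60, limma adjusted p = 0.902) that was 0.05 and 1.34 within the suffixes. The other paralogues were lower than RPL3L. RPL26L1 was at 21.4 and 15.8 FPKM in Hampshire, against 31.0 and 24.6 FPKM in Mali. RPL10L, a testis form in mammals, was listed at 0 in all libraries.

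A ribosome component with a name of another kind had levels like those of the members. RACK1, a scaffold on the head of the small subunit, was at 701 and 593 FPKM in Hampshire, against 549.7 and 492 FPKM in Mali. The breeds did not overlap, and the difference was 0.31 on the log2 scale (SE 0.55, limma adjusted p = 0.969).

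As deposited, most genes that make ribosomes had a negative difference, where most ribosomal protein genes had a positive one. With the common sum both medians were negative, at -0.69 for ribosome biogenesis and -0.20 for the ribosomal protein genes. With size factors the biogenesis median was -0.28, and those of large and small subunit genes were 0.29 and 0.28. As deposited, 33 of 35 ribosome biogenesis genes had a negative difference and 2 (5.71%) a positive one, with a median of -0.40. Across all tested genes 39.5% were positive. Of the 35 genes 23 were separated as lower in Hampshire, as were 2378 of all 10075 tested genes (23.6%). The median of the 35 genes was -0.46 and -0.38 within the suffixes. NOLC1, a nucleolar phosphoprotein, was at 7.23 and 7.25 FPKM in Hampshire, against 14.0 and 16.4 FPKM in Mali, with a difference of -0.97 (SE 0.37, limma adjusted p = 0.697). NOP58, of the box C/D particles that methylate ribosomal RNA, was at 10.9 and 9.34 FPKM in Hampshire, against 21.0 and 16.5 FPKM in Mali, and TSR1, which acts in small subunit maturation, at 8.02 and 6.06 FPKM in Hampshire, against 12.5 and 14.6 FPKM in Mali. Of these 35 genes 0 passed the test. The gap between this list and the ribosomal protein genes was not tested.

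Of 12 other messengers with a terminal oligopyrimidine tract, 8 (66.7%) were positive with a median of 0.02. Across all tested genes 39.5% were positive, with a median of -0.12. Of 10 genes that control messengers with this tract, 3 (30%) were positive with a median of -0.33. Among these regulators, EIF4EBP2, a translation repressor, was at 38.8 and 25.1 FPKM in Hampshire, against 23.5 and 16.7 FPKM in Mali. MAX, the partner of MYC, was at 23.8 and 13.0 FPKM in Hampshire, against 38.7 and 36.9 FPKM in Mali. Mitochondrial ribosomal proteins serve the separate ribosome of the mitochondrion. Of their 77 genes, 17 (22.1%) were positive and 60 negative, with a median of -0.32 that was 0.16 and -0.74 within the suffixes. MRPS34 was at 9.76 and 15.6 FPKM in Hampshire, against 23.6 and 37.0 FPKM in Mali. With the common sum the medians of these 3 lists were -0.33, -0.65 and -0.67. In each of them 0 genes passed the test.

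**Figure D5:**
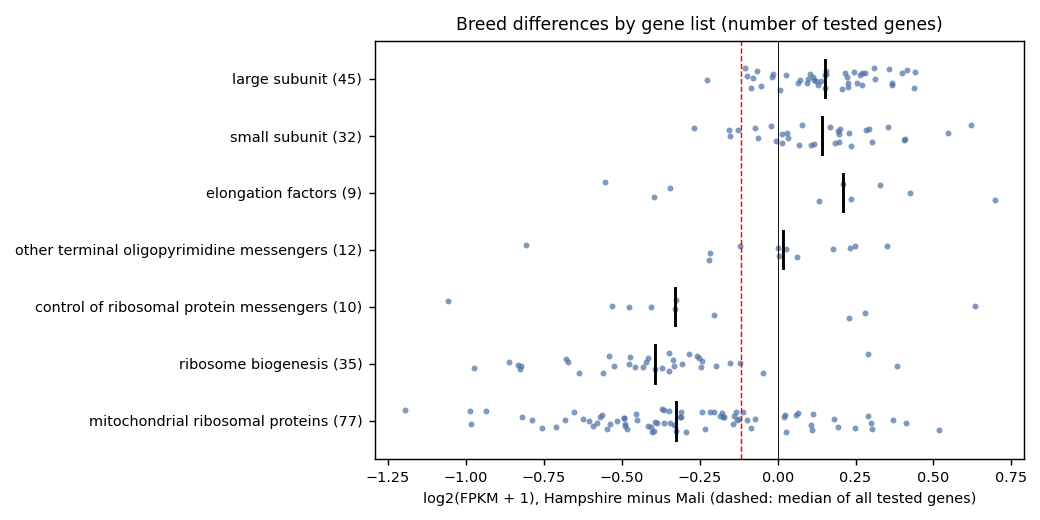
Hampshire minus Mali difference on the log2(FPKM + 1) scale of each tested gene (points) in 7 lists, with the list median (bar) and the median of all tested genes at -0.12 (dashed). The medians of both ribosomal subunits, at 0.15 and 0.14, lie right of the dashed line and those of ribosome biogenesis and mitochondrial ribosomal proteins, at -0.40 and -0.32, left of it.

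Markers of other cell types also differed between the libraries. All 8 fibroblast markers had a positive difference, with summed levels of 484 and 1547 FPKM in Hampshire, against 104 and 343 FPKM in Mali. All 8 tested macrophage markers had a positive difference, and the 9 measured summed to 64.9 and 113 FPKM in Hampshire, against 42.5 and 28.6 FPKM in Mali. The same held for all 5 tested leukocyte markers, and the 10 measured summed to 13.0 and 16.9 FPKM in Hampshire, against 8.97 and 6.30 FPKM in Mali. Endothelial sums were 50.4 and 107.8 FPKM in Hampshire, against 53.4 and 64.6 FPKM in Mali. Adipocyte sums were 74.1 and 333 FPKM in Hampshire, against 112 and 82.8 FPKM in Mali, and red blood cell sums 2584 and 3778 FPKM in Hampshire, against 90.1 and 5522 FPKM in Mali. Smooth muscle sums were 178 and 126 FPKM in Hampshire, against 122 and 58.2 FPKM in Mali. Skin markers, 4 measured, summed to 1.09 and 1.32 FPKM in Hampshire, against 1.16 and 20.4 FPKM in Mali, so Mali replicate 2 stood apart. Of all these markers 0 passed the test, and no measured one stood at 0 in all 4 libraries. Their part in the ribosomal protein values was not tested.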

How the data were processed

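RNA from muscle biopsies was isolated with Trizol and made into libraries with a TruSeq kit, per the labels' protocols. The submitters' processing notes name HISAT2, Bowtie 0.12.2, Picard and Cuffdiff, with no role or order. The authors deposited FPKM per gene and library. Their p-values and q-values, from a comparison of the breeds, were deposited in the same table. Read depth cannot be had from FPKM, and abundant genes, such as those of the mitochondrial genome, can depress all other values of a library.

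Of 30213 rows, 1 that named no gene was dropped, 26 symbols altered to dates by a spreadsheet were put back through their gene IDs, and rows sharing a symbol were summed (RPL18 has 2). The test was limma 3.58.1 (R 4.3.3) on log2(FPKM + 1), for genes reaching 1 FPKM in 2 or more libraries (mean-variance trend, two-sided, Benjamini-Hochberg, threshold 0.05), a procedure checked on simulated data. Differences on this scale understate the change of low genes. Positions were matched for all 77 genes to the Sscrofa11.1 RefSeq table. Genome build and strand setting: not given in the sources used here. Overlapping or duplicated genes are therefore uncertain.

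The genes, lists and alternatives were chosen with earlier results of these data known. Genes were named by level (4 highest and 2 lowest per subunit), difference (4 largest and 4 smallest), lowest unadjusted p (4 per subunit, 3 per other list) or a fixed list. Exceptions are stated, and some genes the rule names are not reported here. Alternatives changed the pseudocount, filter, scaling, limma settings, duplicate rows, libraries and replicate block. Count tests were not run on FPKM. Figures were drawn with matplotlib 3.10.9.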

Additional observations from a re-analysis of the deposited data

How the results depend on the processing

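In every alternative, 0 of the 77 ribosomal protein genes passed. The number of genes called among all tested was 1 with a mean of at least 5 FPKM, 1 with robust empirical Bayes, 68 with the common sum, 63 with the common sum without mitochondrial genes, and 0 to 7 when 1 library was left out. The common sum moved the median difference to -0.20 for large and -0.21 for small subunit genes, and leaving out 1 library gave -0.01 to 0.39 for the large and -0.080 to 0.25 for the small subunit. The number of ribosomal protein genes separated by breed was 15 as deposited, 5 with the common sum, 8 with the common sum without mitochondrial genes, 27 with size factors, and 34 to 56 when 1 library was left out. Of all tested genes 36.6%, 40.1%, 29.5%, 33.9% and 62.2 to 72.4% were separated in these settings. Of the 8 with the common sum without mitochondrial genes, 6 were higher in Hampshire, where 9.60% of all tested genes were. The cause of the scaling differences was not tested. Limma shares variance between genes with a weight, the prior degrees of freedom. That weight was infinite with both common sums, so a gene's own variance was not used. It was 27.4 with the replicate block without size factors, against 5.24 in the main test. The numbers called in these settings therefore rest on different variance estimates. With the replicate block by title suffix, 261 genes were called among all tested (57 with size factors added, where 27 ribosomal protein genes were separated by breed). The lowest adjusted p of a ribosomal protein gene was 0.854 under the block, and over the alternatives it ran from 0.639 to 1. The block also called 6 fibroblast markers and 1 each of macrophages, red blood cells and smooth muscle. The suffixes share only a number: differences between the replicates of the breeds correlated at 0.275 across all tested genes, and 2 pairs cannot show that the libraries are paired. The breed difference in large minus small subunit medians was 0.02 to 0.06 in the other settings and -0.13 to 0.24 when 1 library was left out. Restricting the genes to those alone in their deposited locus, an alternative chosen after seeing the data, gave medians of 0.15 for large and 0.19 for small subunit genes, 11 separated genes, and -0.10 for the breed difference in large minus small subunit medians. Of 55 named genes, 21 kept their sign in all 17 alternatives and 34 did not. Of 935 values, 80 had the other sign, none of them called. The filters, the limma settings and the replicate block without size factors leave an estimate as it was, so no sign could change there. The common sum changed the sign of 18 named genes, more than any other setting.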

Other observations

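The ribosomal protein genes lay on 17 chromosomes, with 12 on chromosome 6, 9 each on chromosomes 1 and 2, and 4 (RPL10, RPL36A, RPL39 and RPS4X) on chromosome X. In 14 of the 77 genes the deposited locus also held another gene, 7 in each subunit. RPS2 shared its locus with RPL3L, NDUFB10 and RNF151.

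Gene models with a LOC symbol carried the protein name of a cytosolic ribosomal protein in 5 rows. The copy named for L14 was at 58.3 and 46.8 FPKM in Hampshire, against 35.3 and 45.2 FPKM in Mali, where RPL14 itself was at 799.8 and 695 FPKM in Hampshire, against 469 and 765 FPKM in Mali. The copy named for S30 was at 13.0 and 46.1 FPKM in Hampshire, against 12.5 and 46.1 FPKM in Mali, higher in both replicates 2 as FAU was. The copy named for S15a was listed at 0 in all 4 libraries.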
